A study of Homo sapiens with 8 samples.

Results

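Platinum adduct repair and checkpoint genes were followed across the arrays as a list of 50 genes named by symbol, which did not draw on any measured value. The list holds nucleotide excision repair, Fanconi anemia, homologous recombination, mismatch repair, translesion synthesis and checkpoint genes. A probe was matched through its accession for 49 of the 50 genes, and BRCA1 was not analysed here. BRIP1 and POLH were too dim to be tested, so that 47 members were tested among 12366 genes in all. The arrays compared CSCs (H460C) and cisplatin-resistant cells (H460R) with parental H460 cells, an established human NSCLC line. H460 and H460R cells had been grown in RPMI with fetal bovine serum. H460R cells had received cisplatin at 0.5 µg/mL for 72 h and were then kept without the drug. H460C cells had been grown nonadherent in a serum-free medium with N2 supplement, EGF and FGF-b, so growth medium and adhesion cannot be told apart from the CSC state. Neither derived population is described as a single clone.

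Cisplatin acts by forming platinum adducts on DNA, within a strand or as crosslinks between the strands. Nucleotide excision repair cuts out adducts within a strand, while the Fanconi anemia pathway unhooks interstrand crosslinks with the help of homologous recombination and translesion polymerases. Stalled forks and breaks are signaled through ATR and ATM to the checkpoint kinases, and mismatch repair proteins recognize platinum adducts and take part in the response to them. Many of these genes are transcribed mainly in S and G2 phase of the cell cycle.

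RNA of each population was sampled in duplicate and every duplicate was run with the dyes both ways, on 8 arrays in all. The pair of arrays was averaged into 1 log2 ratio of the studied cells over H460. A single H460 RNA is labeled on every array, so each test against H460 leaves out the spread of H460 itself and both comparisons share this reference. The duplicates of H460C could not be told apart beyond hybridization noise (correlation of their difference between dye orientations, r = -0.0107 across probes, against 0.267 for H460R). H460C values are therefore given for both samples without an SD, as values of 1 sample, although the tests took 2 ratios. The Rank Products values for H460C thus rest on technical spread alone. The limma fit took a shared estimate of spread from both populations. Its adjusted p-values and SEs for H460C, H460R and the direct contrast therefore all draw in part on technical spread of H460C. H460C and H460R lay on separate slides, and slide and population cannot be told apart. Of the epithelial markers, KRT8 and KRT18 were well above background on all arrays, whereas CDH1 was not well above background in H460 or H460R on any array. EPCAM was called higher in H460C (1.36 on the log2 scale) and KRT19 lower (-1.148), both also against H460R, and 0 of the 5 epithelial markers were called in H460R. Of the markers of other cell types, PTPRC and ALB were too dim to be tested, and COL3A1 was higher in H460C (1.22 on the log2 scale). The small number of arrays limits how precise these values are.

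In H460C, 9 members were higher than in H460 and 1, the nucleotide excision gene ERCC1, was lower. UBE2T, BLM, RAD54L, FANCM, EXO1, MSH6, FANCD2, TOPBP1 and CHEK1 were the 9 members that passed the test for a minimum fold of 1.5 (limma, Benjamini-Hochberg at 0.05). This is 19.1% of the 47 members tested, beside 9.02% of all genes. One member was lower, beside 6.53% of all genes. The median log2 ratio of the members was 0.357, beside 0 for all genes. Above 0 were 35 of 47 members, beside 50% of all genes. BRCA2 and XRCC2, both above 0, passed the filter only through H460C. Both arrays of both replicates gave 1 sign in 40 of 43 members with all 4 values (93%), beside 66.4% of all genes. Rank Products, which takes the extremes of each array, called 0 of 43 members at an FDR of 0.05, beside 0.724% of all genes higher and 0.604% lower, while 15 of the 43 (34.9%) had an unadjusted p under 0.05 in 1 direction, beside 21.7% of all genes. RNA came from whole cultures, so a larger share of cells in S phase and more RNA per cell cannot be told apart. The limma calls moved when a replicate was left out. Without H460C replicate 2, which left 1 H460C sample, ERCC1 (-0.81), FANCD2 (0.859), CHEK1 (0.83) and TOPBP1 (0.833) were no longer called by limma. With the H460C replicates averaged into 1 sample, ERCC1, FANCD2 and CHEK1 were not called. In both of these settings the share of members called lay closer to that of all genes than with all replicates.

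In H460R, DDB2, RAD51C and FANCI were higher than in H460 and FANCE was lower. The 3 higher members are 6.38% of those tested, beside 6.27% of all genes, and the lower one stands beside 2.89% of all genes, so the number of calls was near that of all genes. The median log2 ratio of the members was 0.236, beside 0.003 for all genes, and 32 of 47 members were above 0, beside 50.4%. All 4 arrays gave 1 sign in 30 of 47 members (63.8%), beside 58% of all genes. Rank Products called 0 of 47 members, beside 0.533% of all genes higher and 0.516% lower, and 9 members (19.1%) had an unadjusted p under 0.05 in 1 direction, beside 17.9% of all genes. DDB2 was the member nearest to a call, with an FDR of 0.0566 by exact Rank Products. Without H460C replicate 1, RAD51C had no H460C ratio and was not tested. FANCI was then read from another probe (0.633 in H460R) and was not called.

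The direct contrast of H460C with H460R, in which the H460 reference cancels, called FANCE, CHEK1 and BLM higher in H460C and DDB2 higher in H460R. The 3 higher members are 6.38% of those tested, beside 5.17% of all genes, and the 1 lower member stands beside 6.68% of all genes. The median difference of the members was 0.179 on the log2 scale, beside 0.021 for all genes, and 28 of 47 members (59.6%) were above 0, beside 52.2%. Without a minimum fold, limma called 20 members higher (42.6%) and 11 lower (23.4%), beside 31.4% and 29.6% of all genes. Without H460C replicate 2 or without H460R replicate 1, only FANCE and DDB2 were called. The CHEK1 difference was then 0.95 and 0.915. BLM was not called by limma without H460C replicate 2 (0.145), H460R replicate 1 (0.218) or H460R replicate 2 (0.0716), nor with a normexp offset of 0 (0.077), under median centring (0.159), on the Cy5 arrays (0.859), with the mean of the arrays available (0.0513) or with a minimum fold of 2.

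**Figure D1:**
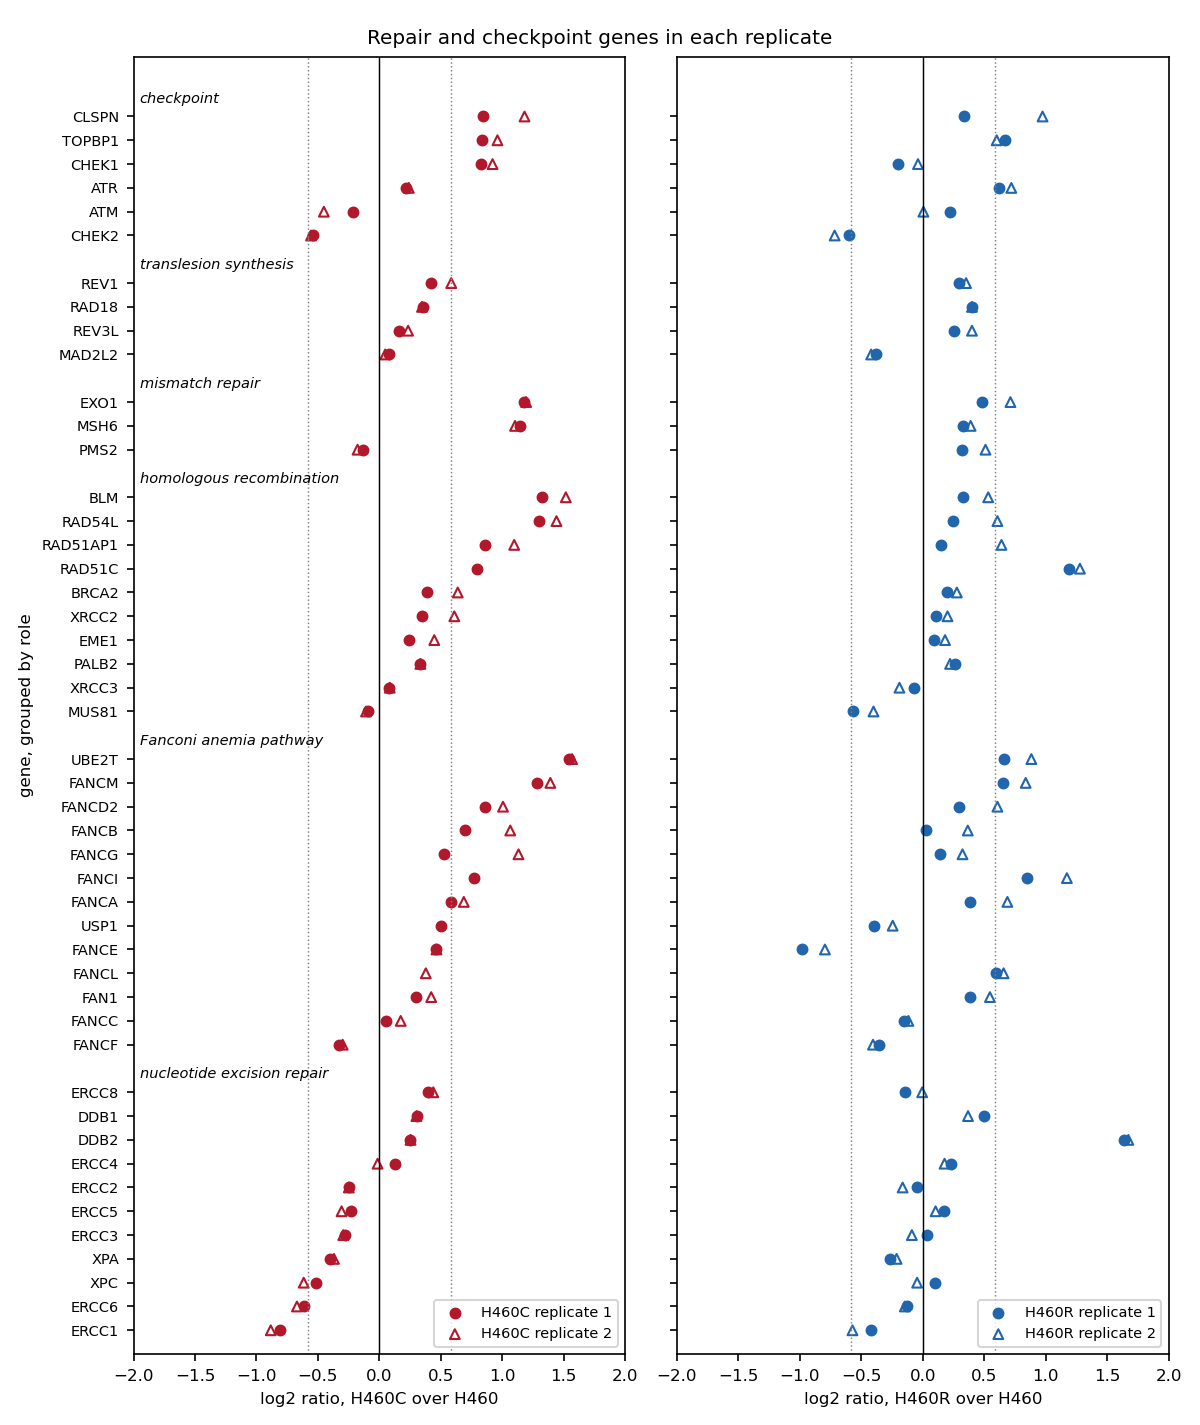
Log2 ratio over H460 (x axis) of the 47 tested members (y axis, grouped by role) in each H460C replicate (left) and each H460R replicate (right). Circles are replicate 1, triangles replicate 2, and dotted lines mark 1.5-fold. UBE2T lies farthest right in H460C at 1.54 and 1.57, and DDB2 farthest right in H460R at 1.63 and 1.67.

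The promoter sequences of UBE2T, BLM, FANCM, DDB2 and FANCE, picked among the called members, are shown. Promoters of genes of the S and G2 phases often hold CCAAT boxes. Each is the 150 bases before the RefSeq start site (GRCh38.p14), with CCAAT, or ATTGG on the other strand, in capitals. UBE2T lies at chr1:202341937-202342086 (minus strand), BLM at chr15:90717196-90717345 (plus), FANCM at chr14:45135780-45135929 (plus), DDB2 at chr11:47214304-47214453 (plus, the first of its 2 listed start sites) and FANCE at chr6:35452188-35452337 (plus).
UBE2T: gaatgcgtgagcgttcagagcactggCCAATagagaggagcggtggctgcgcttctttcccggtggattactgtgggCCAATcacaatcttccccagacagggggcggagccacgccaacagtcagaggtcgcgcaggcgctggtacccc
BLM: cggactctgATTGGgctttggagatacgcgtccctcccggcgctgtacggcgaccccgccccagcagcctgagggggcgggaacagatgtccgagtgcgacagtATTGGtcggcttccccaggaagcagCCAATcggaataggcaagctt
FANCM: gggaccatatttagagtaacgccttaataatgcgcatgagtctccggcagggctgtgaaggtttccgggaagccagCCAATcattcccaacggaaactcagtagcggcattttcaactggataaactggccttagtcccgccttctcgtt
DDB2: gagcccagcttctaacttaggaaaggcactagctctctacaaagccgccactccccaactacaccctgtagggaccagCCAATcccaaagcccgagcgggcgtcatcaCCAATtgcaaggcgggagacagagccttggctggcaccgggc
FANCE: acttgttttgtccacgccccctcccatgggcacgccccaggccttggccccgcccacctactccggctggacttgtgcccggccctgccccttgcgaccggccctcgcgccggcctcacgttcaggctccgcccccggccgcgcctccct
UBE2T and DDB2 each hold 2 CCAAT matches in this stretch, BLM holds 3 and FANCM 1, and FANCE has none of these letters there. Of the 49 members with an entry, all but FANCI, 24 (49%) hold the box within 250 bases before a start site, beside 37% of 27305 genes. It occurs in 6 of the 9 members higher in H460C (UBE2T, BLM, RAD54L, FANCM, MSH6 and CHEK1). The E2F letters TTTCCCGC, TTTCGCGC, TTTGCCGC or TTTGGCGC, on either strand, occur in 5 of 49 members (10.2%), beside 3.4% of genes, and in 0 of those 9. The cell cycle homology element TTTGAA, on either strand, occurs in 7 of 49 members (14.3%), beside 16.1% of genes, and in 1 of those 9. A match is a description of letters and no evidence of binding.

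Nucleotide excision repair was the group of members with the lowest median in H460C, at -0.269, beside -0.026 in H460R. Further genes of this pathway, given below, had a median of 0.104 in H460C. The 11 members were all tested. In H460C, 1 was lower, 0 were higher and 10 did not pass, and in H460R 1 was higher and 10 did not pass. ERCC1 (NM_001983), which forms with ERCC4 the nuclease that cuts 5′ of the adduct, had log2 ratios of -0.81 and -0.88 in H460C. Its level was thus 0.556 times that of H460 (limma, adjusted p = 0.0144), while H460R read -0.425 and -0.572. Both H460C values lie below both H460R values, but the difference of -0.349 (SE 0.073) did not pass the test. The ERCC1 call in H460C was lost under median centring in place of loess (-0.684, adjusted p = 1 by limma). ERCC4 itself read 0.12 and -0.015 in H460C and 0.23 and 0.18 in H460R.

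DDB2 (NM_000107) is the damage-binding subunit that brings the excision machinery to lesions in chromatin and is a known p53 target. Its log2 ratios were 1.63 and 1.67 in H460R, a mean of 1.65 ± 0.027 (SD, n = 2) or 3.14-fold (limma, adjusted p = 0.000103). In H460C they were 0.249 and 0.253. The H460R values lie far above those of H460C, and the level in H460R was 2.64-fold that in H460C (difference -1.401, SE 0.054, limma adjusted p = 0.000418). DDB2 passed the limma test in H460R and in the direct contrast under every alternative run. Its partner DDB1 read 0.309 and 0.301 in H460C and 0.494 and 0.368 in H460R and was not called.

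None of the other damage sensors and helicases of this group was called from its brightest probe. XPC, which finds distorted DNA, read -0.52 and -0.62 in H460C and 0.099 and -0.046 in H460R. The H460C values, which count as 1 sample, lie below both H460R values. The difference of -0.594 (SE 0.075) did not pass the test for a minimum fold of 1.5 (limma, adjusted p = 1). ERCC6, which starts transcription-coupled repair, read -0.61 and -0.67 in H460C and -0.13 and -0.146 in H460R and was not called (limma, adjusted p = 0.598 in H460C). It was called lower in H460C on the log ratios of the scanner software (-0.971), without background subtraction (-0.699) and on the arrays with H460C in Cy3 (-0.902). XPA, which verifies the lesion, read -0.405 and -0.37 in H460C and -0.27 and -0.21 in H460R. ERCC3 and ERCC5 had H460C means of -0.287 and -0.269 and H460R means of -0.026 and 0.14, and neither was called. For ERCC2, a helicase of TFIIH, the brightest probe read -0.248 in H460C and was not called, and a second probe read -0.812 and was called lower (limma, adjusted p = 0.0443). ERCC8 read 0.399 and 0.438 in H460C, the highest of the group, and a probe of another transcript read 0.054.

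The Fanconi anemia group had median log2 ratios of 0.635 in H460C and 0.45 in H460R. Of its 13 members, 3 were higher in H460C (UBE2T, FANCM and FANCD2) and 10 did not pass. In H460R, 1 was higher (FANCI), 1 was lower (FANCE) and 11 did not pass. UBE2T (NM_014176) is the ubiquitin-conjugating enzyme that acts with FANCL on FANCD2 and FANCI. Its log2 ratios were 1.54 and 1.57 in H460C, 2.94-fold over H460 and the highest of all members (limma, adjusted p = 2e-04). In H460R UBE2T read 0.66 and 0.88, a mean of 0.772 ± 0.16 (SD, n = 2), which was not called (limma, adjusted p = 0.114). It was called there without H460R replicate 1 (0.0377 by limma). All H460C values of UBE2T were above all those of H460R, with a difference of 0.782 (SE 0.086) that did not pass (limma, adjusted p = 0.255).

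FANCM (NM_020937), the translocase that recognizes stalled forks, read 1.28 and 1.39 in H460C and 0.65 and 0.84 in H460R. The H460C level was 2.52-fold that of H460 (limma, adjusted p = 0.000448). Of 2 further FANCM probes, 1 was also called higher in H460C (1.161) and 1 was not (0.753). The further probe that was called passed the filter only through H460C. FANCD2, which is ubiquitinated at the crosslink, read 0.86 and 1.00 in H460C (limma, adjusted p = 0.0312) and 0.29 and 0.61 in H460R. A second FANCD2 probe read 0.379 in H460C and was not called, and the mean over probes (0.656) and the arrays with H460C in Cy3 (0.823, adjusted p = 0.071 by limma) gave no call either. FANCD2 has pseudogene copies, and its values are uncertain. FANCI, the partner of FANCD2, read 0.85 and 1.17 in H460R, a mean of 1.01 ± 0.23 (SD, n = 2; limma, adjusted p = 0.0358), and 0.768 in the 1 H460C ratio available. Its other probes read 0.633 and 0.587 in H460R, which were not called, and 0.886 and 0.921 in H460C, which were called. The FANCI call in H460R was lost on the arrays with H460R in Cy3 (0.572) and without H460R replicate 2 (0.851). It was also lost on the log ratios of the scanner software (adjusted p = 0.0771 by limma), with a normexp offset of 0 (0.0772), on the mean over probes (0.245), with the mean of the arrays available (0.0745) and with a minimum fold of 2.

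FANCE (NM_021922), a core complex subunit that binds FANCD2, was the member that differed most between the populations in the other direction from DDB2. It read 0.457 and 0.464 in H460C and -0.98 and -0.80 in H460R. Both H460C ratios were above H460 and both H460R ratios below it. The H460R mean was -0.89 ± 0.13 (SD, n = 2), a level 0.54 times that of H460 (limma, adjusted p = 0.0146). H460C had 2.55-fold the level of H460R (difference 1.35, SE 0.078, limma adjusted p = 0.00175). The call against H460 in H460R was lost without H460R replicate 1 (-0.796, adjusted p = 0.0752 by limma) under median centring (-0.758), on the arrays with H460R in Cy5 (-0.823, adjusted p = 0.156 by limma) and with a minimum fold of 2. The direct difference was lost only when the minimum was set to 2-fold (adjusted p = 0.0778 by limma).

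Of the other core complex genes, FANCA read 0.58 and 0.69 in H460C and 0.38 and 0.69 in H460R. FANCB read 0.69 and 1.06 in H460C and FANCG 0.53 and 1.13, and neither was called (limma, adjusted p = 0.154 and 0.408). The gap came with the Cy5 array of replicate 1 (FANCB 0.48, FANCG 0.005), whose Cy3 partner read 0.908 and 1.047. FANCC, FANCF and FANCL had H460C values of 0.113, -0.312 and 0.377, the last from 1 ratio, and H460R means of -0.135, -0.38 and 0.625. FAN1, a nuclease recruited by ubiquitinated FANCD2, had means of 0.357 and 0.465. USP1, which removes the ubiquitin from FANCD2, read 0.5 in the 1 H460C ratio and -0.39 and -0.245 in H460R. The USP1 difference of 0.819 (SE 0.094) did not pass (limma, adjusted p = 0.239).

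In homologous recombination, BLM and RAD54L were higher in H460C and RAD51C was higher in H460R, among 10 members tested of 12. The group medians were 0.495 in H460C and 0.238 in H460R. The H460C median lies between XRCC2 (0.477) and BRCA2 (0.513), which passed the filter only through H460C. BLM (NM_000057), the helicase that dissolves recombination intermediates, read 1.33 and 1.52 in H460C, 2.68-fold over H460 (limma, adjusted p = 0.000549). It read 0.33 and 0.53 in H460R, below both H460C values. The direct difference of 0.99 (SE 0.099) passed narrowly (limma, adjusted p = 0.0445). RAD54L, a motor protein of strand exchange, read 1.30 and 1.44 in H460C (limma, adjusted p = 0.00192) and 0.24 and 0.61 in H460R. Its difference of 0.943 (SE 0.13) was not called (limma, adjusted p = 0.155) but was called without H460R replicate 2 (0.0411 by limma).

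RAD51C (NM_002876), a recombination mediator, read 1.19 and 1.28 in H460R, a mean of 1.24 ± 0.06 (SD, n = 2) or 2.35-fold over H460 (limma, adjusted p = 0.00132). H460C gave 1 ratio of 0.794, below both H460R values (limma, adjusted p = 0.0998), and the difference of -0.441 (SE 0.08) did not pass. RAD51AP1, which acts in strand exchange, read 0.855 and 1.096 in H460C (limma, adjusted p = 0.0828) and 0.145 and 0.64 in H460R. It was called higher in H460C when either H460R replicate was left out. MUS81, the nuclease subunit paired with EME1, read -0.56 and -0.40 in H460R and -0.093 and -0.109 in H460C, and EME1 had means of 0.344 in H460C and 0.136 in H460R. PALB2, which links BRCA2 to chromatin, had means of 0.332 and 0.241, and XRCC3 of 0.08 and -0.131.

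BRCA2, XRCC2 and CLSPN were not well above background in H460 on any of the 8 arrays, so H460 has only an upper bound. The bound was the higher of the probe's own signal and the lowest signal of a probe well above background. For BRCA2 and CLSPN it was the probe's own signal, so their folds are the plain mean ratios. Each fold is a mean over the replicates, and a single replicate can lie below it. BRCA2 and XRCC2 passed the filter only through H460C and were not called in any comparison. BRCA2 read 1.43-fold over H460 in H460C and 1.18-fold in H460R, where 3 of 4 arrays measured it. XRCC2 was at least 1.36-fold higher in H460C, and only 1 of 4 arrays measured it in H460R, where no fold is given. CLSPN, the adaptor through which ATR reaches CHEK1, read 2.02-fold over H460 in H460C and 1.58-fold in H460R. Its log2 ratios were 0.845 and 1.18 in H460C and 0.34 and 0.97 in H460R, and it was not called (limma, adjusted p = 0.136 in H460C). BRIP1 was well above background on 3 of 4 H460C arrays, 1 of 4 H460R arrays and 0 of 8 H460 channels, and POLH on none.

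All 3 mismatch repair members were tested, and MSH6 and EXO1 were higher in H460C. MSH6, part of the dimer that recognizes mismatches, read 1.14 and 1.103 in H460C, 2.18-fold over H460 (limma, adjusted p = 0.000357), and 0.33 and 0.39 in H460R. The H460C values lie above those of H460R by 0.764 (SE 0.057), which did not pass (limma, adjusted p = 0.106). EXO1, the exonuclease that degrades the mismatched strand and resects breaks, read 1.17 and 1.19 in H460C (limma, adjusted p = 0.00124) and 0.48 and 0.71 in H460R. PMS2 read -0.13 and -0.18 in H460C and 0.315 and 0.51 in H460R. Its 4 probes ranged from -0.444 to 0.227 in H460C and from 0 to 0.701 in H460R, none was called, and PMS2 has near-identical pseudogene copies, so its values are uncertain. MSH6 and EXO1 kept their calls in H460C under all alternatives except a minimum fold of 2.

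None of the 4 translesion synthesis members tested of 5 was called in any comparison. REV1, the scaffold of the translesion polymerases, read 0.42 and 0.58 in H460C and 0.296 and 0.352 in H460R, but a second probe read -0.091 and -0.075 on average. RAD18, the ligase that marks PCNA at stalled forks, read 0.353 and 0.346 in H460C and 0.40 and 0.40 in H460R. REV3L, the catalytic subunit of polymerase zeta, had means of 0.198 and 0.328. MAD2L2, its accessory subunit, read 0.076 and 0.047 in H460C and -0.38 and -0.42 in H460R, and the difference of 0.46 (SE 0.055) was within 1.5-fold.

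Among the 6 checkpoint members, CHEK1 and TOPBP1 were higher in H460C and 0 were called in H460R. CHEK1 (NM_001274), the kinase activated by ATR, read 0.83 and 0.92 in H460C, 1.83-fold over H460 (limma, adjusted p = 0.0123). It read -0.20 and -0.04 in H460R, so that the level in H460C was 1.99-fold that in H460R (difference 0.995, SE 0.077, limma adjusted p = 0.0173). TOPBP1, which activates ATR, read 0.83 and 0.96 in H460C (limma, adjusted p = 0.00578) and 0.67 and 0.60 in H460R, with a difference of 0.263 (SE 0.068) that did not pass. ATR read 0.215 and 0.239 in H460C and 0.62 and 0.72 in H460R (limma, adjusted p = 0.422 in H460R). ATM, the kinase of double-strand breaks, read -0.215 and -0.45 in H460C and 0.22 and 0.005 in H460R. CHEK2, the kinase downstream of ATM, read -0.54 and -0.56 in H460C and -0.60 and -0.72 in H460R and was not called (limma, adjusted p = 0.604 in H460R). CHEK2 was called lower in H460R on the log ratios of the scanner software (-0.772) and on the arrays with H460R in Cy3 (-0.785), and it has pseudogene copies that make its values uncertain.

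**Figure D2:**
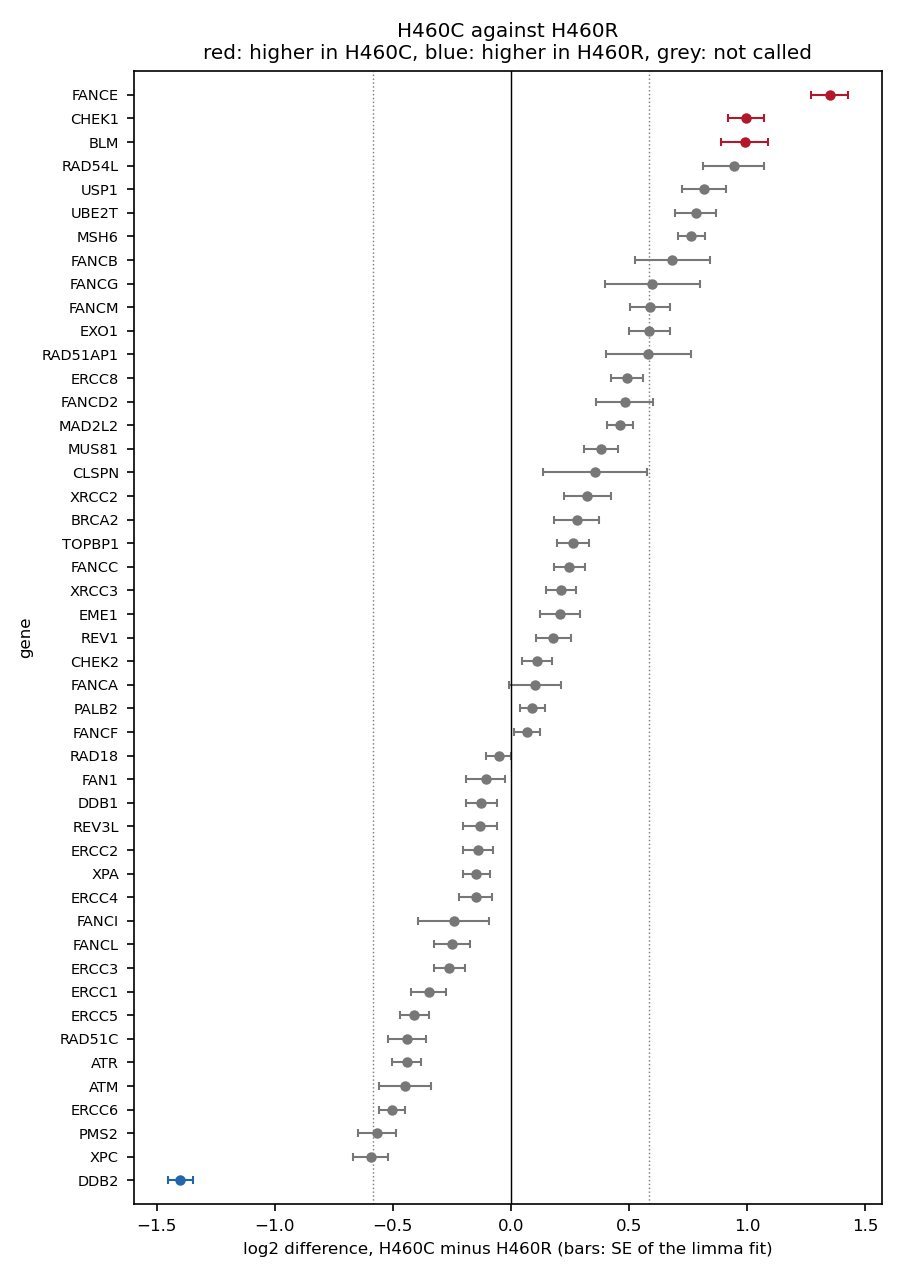
Log2 difference between H460C and H460R (x axis) for each of the 47 tested members (y axis), with bars for the SE of the limma fit and dotted lines at 1.5-fold. FANCE (1.35), CHEK1 (0.995) and BLM (0.99) were called higher in H460C, and DDB2 (-1.401) higher in H460R.

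Single arrays showed how far the dye orientation moved a value. UBE2T lay between 1.53 and 1.60 on the 4 H460C arrays, and DDB2 between 1.52 and 1.74 on the 4 H460R arrays. BLM read 1.27 and 1.21 with H460C in Cy3 and 1.38 and 1.82 in Cy5, and in H460R it read -0.023 and 0.208 in Cy3 and 0.682 and 0.855 in Cy5. TOPBP1 read 1.17 and 1.15 with H460C in Cy3 and 0.499 and 0.768 in Cy5, and its call was lost on the Cy5 arrays alone (0.633, adjusted p = 1 by limma). ERCC1 read -0.67 and -0.737 in Cy3 and -0.951 and -1.03 in Cy5 in H460C, and its call was lost on the Cy3 arrays alone (-0.703, adjusted p = 0.0896 by limma). The CHEK1 calls were lost on the Cy5 arrays alone, at 0.908 in H460C (adjusted p = 0.104) and 1.04 in the direct contrast (0.153), both by limma.

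**Figure D3:**
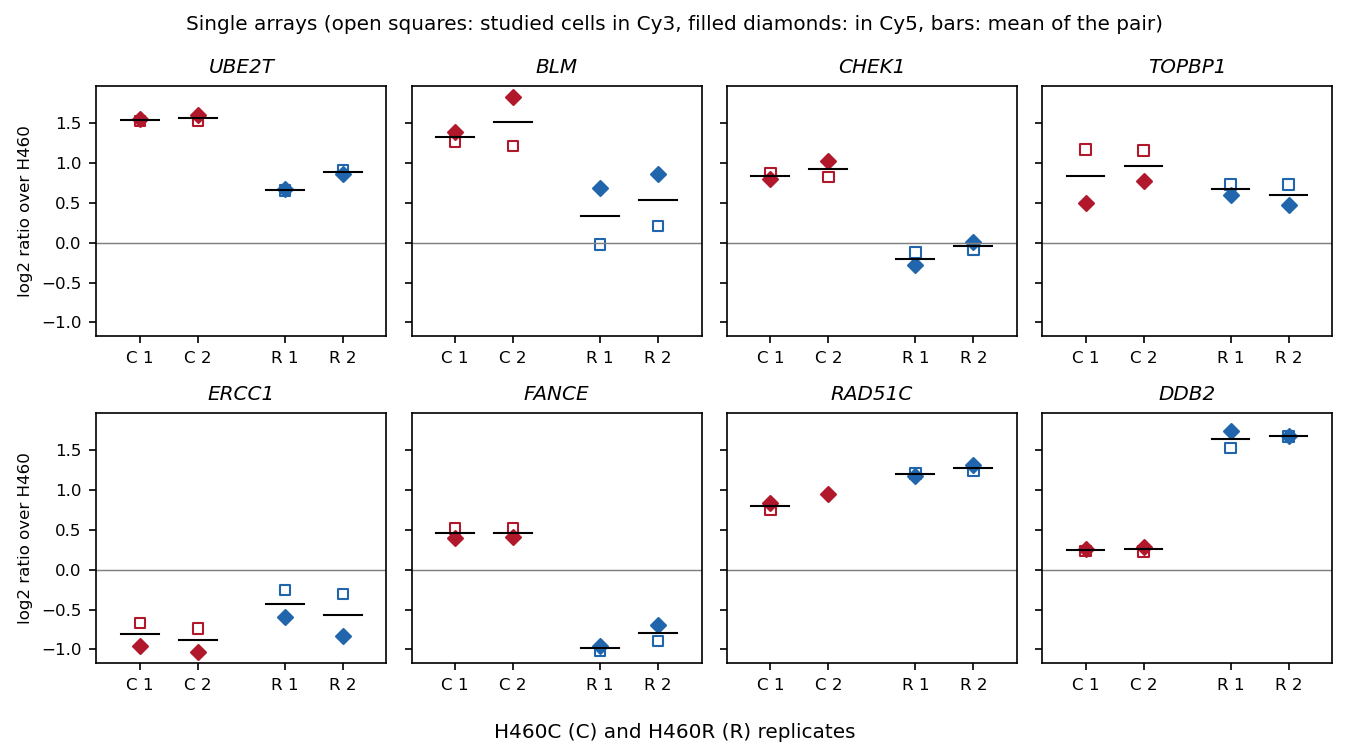
Log2 ratio over H460 (y axis) of 8 members on every array, for the H460C and H460R replicates (x axis). Open squares are arrays with the studied cells in Cy3, filled diamonds those in Cy5, and bars the mean of a dye-swap pair. DDB2 in H460R (1.52 to 1.74) and FANCE in H460R (-1.02 to -0.695) stand apart from H460C in both dyes, while the BLM values in H460R differ by dye.

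Other genes of the same pathways were read from further lists, drawn up with earlier results of these data known. Their medians in H460C were 0.104 (nucleotide excision), 0.398 (Fanconi), 0.226 (recombination), -0.213 (mismatch), 0.436 (translesion) and 0.339 (checkpoint). For nucleotide excision and mismatch repair the sign was opposite to that of the members (-0.269 and 1.123). Of 21 further nucleotide excision genes tested, RPA3 was higher in H460C (1.46), and RPA3 (1.41) and GTF2H5 (1.31) were higher in H460R, and 0 were lower. Of 9 further Fanconi genes, CENPX (1.53 in H460C and 0.794 in H460R) and RFWD3 (1.21 and 0.819) were higher in both populations. Among the further recombination genes, RECQL4 (1.48), RMI2 (1.02), BARD1 (0.913) and SEM1 (0.848) were higher in H460C. ABRAXAS1, a subunit of a BRCA1 complex, was lower in both, at -1.27 and -1.37 in H460C and -1.20 and -1.24 in H460R. Of 5 further mismatch repair genes, 0 were called. Of 8 further translesion genes, POLQ (1.22) and HLTF (0.891) were higher in H460C and HLTF (0.943) in H460R. Among 17 further checkpoint genes, H460C had 5 higher and 1 lower, and H460R had 0 calls. The 5 were PLK1 (1.68), CDC25A (1.62), TIMELESS (1.53), H2AX (1.45) and TIPIN (0.974), and the lower one was TP53BP1 (-0.789). The lowest genes of the remaining lists in H460C, none of them called, were GTF2H4 (-0.438), FAAP100 (-0.393), PMS1 (-0.589) and POLI (-0.089). In the direct contrast, PLK1 (1.34), CDC25A (1.23), TIMELESS (1.17) and H2AX (0.925) were higher in H460C.

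Genes of DNA replication and proliferation and targets of p53 were read beside the repair genes. Of 21 such genes tested, none of them a member, 16 were higher in H460C and 3 in H460R (PCNA, MCM4 and TYMS). Their median log2 ratio was 1.44 in H460C and 0.469 in H460R, from CCNE2 (0.404) to CDC6 (1.96) in H460C and from CDT1 (-0.381) to PCNA (1.29) in H460R. The direct contrast called 5 of them higher in H460C and 0 lower, with a median of 0.799. Of 20 targets of p53, DDB2 not among them, 8 were higher in H460R and 12 were not called, while 2 (CDKN1A and BTG2) were higher in H460C, with medians of 0.68 and 0.272. They ranged from SESN2 (-0.69) to GDF15 (1.90) in H460R, and Rank Products called GDF15 and CDKN1A there. In the direct contrast 5 were higher in H460R and 0 in H460C, with a median of -0.526. What part either of these lists has in the values of the members was not tested.

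**Figure D4:**
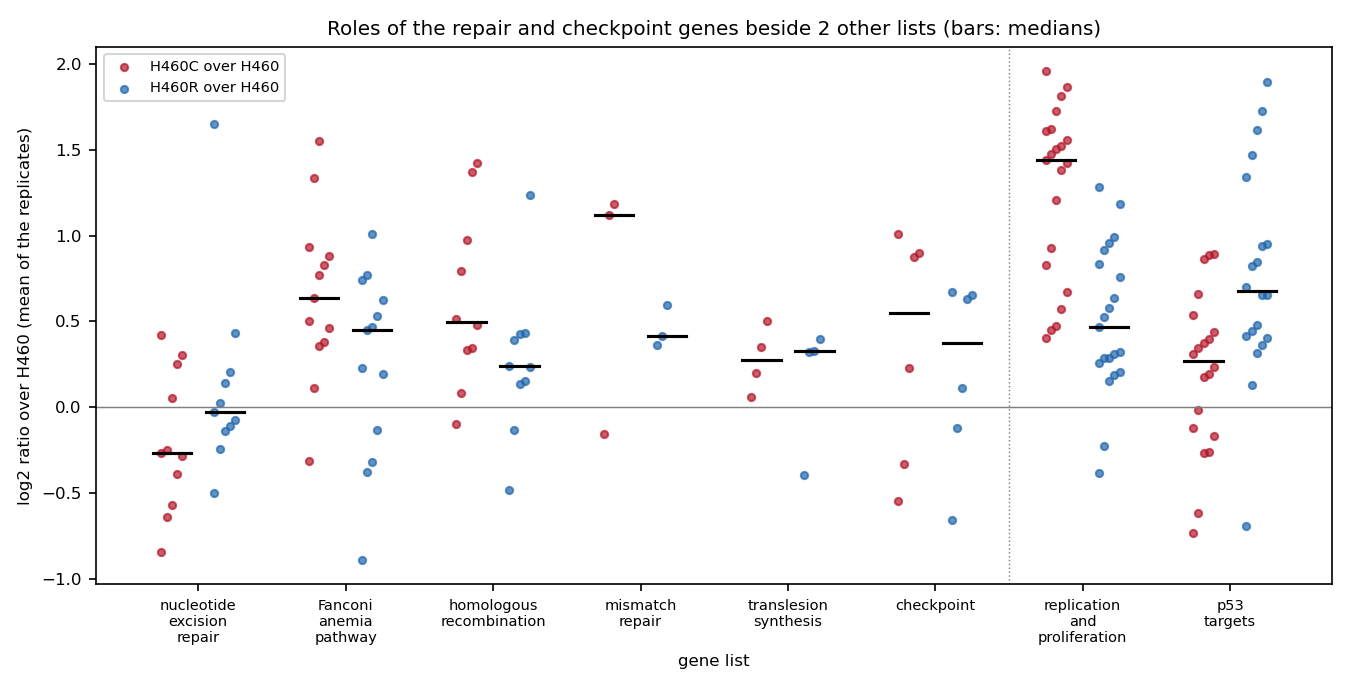
Log2 ratio over H460 (y axis) of each tested gene in the 6 roles and in the lists of replication and p53 target genes (x axis), for H460C in red and H460R in blue, with bars at the medians. The nucleotide excision members have the lowest H460C median (-0.269) and the replication genes the highest (1.44).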

How the data were processed

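The authors extracted the spots with Feature Extraction 10.1.1.1. The deposited intensity values used were medians of spot and local background in both channels, without normalization. The deposited log10 ratios of the same software (red over green), made by the authors after its own background subtraction and dye normalization, and the authors' log2 ratios in a value table, already turned to studied cells over H460, served as alternatives. The background correction and normalization used there are not given in the sources used here beyond the name of limma, its column medians lie between -0.02 and 0, and it correlated with the ratios computed here with r from 0.952 to 0.997 per array. On 1 array the deposited log10 ratios lacked a decimal point and were divided by 10 raised to 9 (a deposited score until then). The software's 0 or 1 marks of outlier spots and of signal well above background were taken as deposited. Columns without a sample numbered 0.

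Background was corrected with normexp (offset 50, all spots), control spots were dropped, outlier spots were set to missing and ratios were normalized by loess within arrays. The 43376 spots were averaged into 41000 probes, of which 26046 had at least 0.5 of their spots well above background in every channel of a population. Of these 25983 had a ratio in both populations and were tested. Members had 64 probes, 60 of them tested. In all, 4 members (FANCL, FANCI, USP1 and RAD51C), had 1 H460C ratio, since an outlier spot left a dye-swap pair incomplete. The brightest probe past the filter stood for a gene. Accessions were matched to symbols through RefSeq (GRCh38.p14) for 23958 of 25868 probes with RefSeq accessions.

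Ratios were tested against 0 with Rank Products (exact distribution, FDR 0.05) on probes with both ratios, and with limma's test for a minimum fold of 1.5 on the 4 ratios (degrees of freedom 2 residual and 3.44 prior, two-sided, Benjamini-Hochberg over all probes at 0.05). The minimum was set because earlier fits without one called most genes. On data simulated for H460C over H460 with 24373 probes, limma recovered 57% of changes of 1 on the log2 scale. It recovered 98% of changes of 2 and 100% of 3, with 0 false calls. Rank Products recovered 100% with 3 to 7 false calls. On the measured H460C ratios, however, Rank Products did not call UBE2T (1.554, FDR 0.143) or BLM (1.421, FDR 0.174). The simulated recovery of Rank Products therefore does not carry over to the members. Members, lists, alternatives and the naming rule were chosen with earlier results of these data known. The rule gives values for the 5 highest and 5 lowest members of each comparison, and called members and all others were added by role. Alternatives changed the signal, background, centring, filter, dye, probes, minimum fold and replicates. Scripts ran in R 4.3.3 with limma 3.58.1 and the data.table package (1.17.8). Some genes of the lists are not reported here.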

Additional observations from a re-analysis of the deposited data

Results flagged for a closer look

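Of 47 members tested, 4 had effects against H460 that differed between the populations by limma's test of the difference (minimum 1.5-fold). Higher in H460C were 6.38% of the members, beside 5.17% of all genes, and lower 2.13%, beside 6.68%. No value is explained here. FANCE differed by 1.35 on the log2 scale, above H460 in both H460C ratios and below it in both H460R ratios. CHEK1 differed by 0.995, above H460 in both H460C ratios. Its H460R ratios (-0.201 and -0.039) lay near H460 and were not called. BLM differed by 0.99, with all ratios of both populations above H460. DDB2 differed by -1.401, with all ratios above H460 and H460R higher.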

How the results depend on the processing

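None of the 34 member values followed under alternatives (called members and the highest and lowest of each comparison) reversed its direction. Among the other values, ERCC4 in H460C and ERCC3 and XPC in H460R had replicates on both sides of 0. Of the values under alternatives, 569 kept their side of the threshold, 46 lost a call and 29 gained one. UBE2T, BLM and FANCM kept their calls in H460C under every alternative, and DDB2 kept its calls in H460R and in the direct contrast. The numbers of members called by limma in H460C, H460R and the direct contrast (10, 4 and 4) became 41, 37 and 31 without a minimum fold and 3, 1 and 1 with a minimum fold of 2. Of all genes, 73.6%, 70.8% and 61% were called without a minimum fold and 5.39%, 1.75% and 4.3% with that of 2. On the log ratios of the Feature Extraction software they became 16, 7 and 5, beside 25%, 16.4% and 19.3% of all genes. The direct contrast called 2 on the arrays with H460C or H460R in Cy5, beside 5.9% of all genes. Leaving out 1 replicate at a time also moved calls, but a single remaining sample is then assumed to vary like the other population. Rank Products cannot be run on 1 ratio and was not run there. It called 0 members in both populations, but 1 in H460R with the Feature Extraction log ratios (CLSPN) and 1 with no filter, on the Cy5 arrays or on the mean over probes (DDB2 each time). The cause of these moves was not tested.

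The median log2 ratio of the members in H460C (0.357) was 0.406 with the Feature Extraction log ratios, 0.379 without background subtraction, 0.407 with a normexp offset of 0, 0.478 with median centring, 0.315 in the authors' table, and 0.302 and 0.391 on the Cy3 and Cy5 arrays. In H460R (0.236) it was 0.397, 0.355 and 0.369 with the first, the third and the fourth of these settings, and 0.326 with the stricter filter. The median difference (0.179) was 0.08 with the stricter filter and 0.097 on the Cy5 arrays. Leaving out 1 replicate gave 0.338 to 0.377, 0.223 to 0.323 and 0.112 to 0.26. Median centring moved the median of all genes to 0.096 in H460C and 0.077 in H460R.

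Replicate numbers are shared by the labels of both populations, but nothing says that they pair the samples (r = 0.227 between deviations of the same number, across probes, with 2 pairs). With the replicate number as a block, limma called 15 members in H460C, 6 in H460R and 5 in the direct contrast. Of all genes, 17.2%, 10.7% and 14% were called with that block. An alternative chosen after seeing the data averaged the arrays available in a dye-swap pair and called 11, 3 and 3. That setting called 15.6%, 8.85% and 11.4% of all genes. Probes near background, such as those of CLSPN, BRCA2 and XRCC2, limit what the arrays can show of the lowest members.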
